A study of Mus musculus with 15 samples.

Results

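*Apoe*, *Apoc1*, *Apoc4* and *Apoc2* are apolipoprotein genes that lie side by side on mouse chromosome 7. They were chosen by gene symbol and position as the members of this locus, 4 of the 54390 genes listed for each library. The cluster was nevertheless put forward with earlier results of these libraries known, so the p-values below, each adjusted over all genes tested, are not independent evidence. RNA came from BV2 cells, an immortalized line of mouse microglia, the macrophages of the brain. Of the 15 libraries, 8 came from WT cells, 4 of them non-foamy and 4 foamy, and 7 from Trem2-/- cells, 3 of them non-foamy and 4 foamy. Foamy cells were incubated overnight with 20 µg/ml of soluble cholesterol, that is cholesterol carried by methyl-beta-cyclodextrin, whereas media without it was given to the non-foamy cells. The Trem2-/- cells carry Cas9 and a guide RNA against *Trem2*, a lipid-sensing receptor of macrophages, and were isolated by limiting dilution, so that the effect of the genotype and that of the clone cannot be told apart. Whether replicates were separate cultures is not stated, and the p-values measure the spread between these libraries, which may be technical.

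The proteins of this locus coat lipoprotein particles and steer their handling. ApoE, the product of *Apoe*, is a ligand of lipoprotein receptors and is secreted by macrophages, where it accepts cholesterol leaving the cell through the ABC transporters. ApoC-I, from *Apoc1*, hinders the binding and lipolysis of triglyceride-rich particles, apoC-II, from *Apoc2*, is the cofactor that lipoprotein lipase needs, and apoC-IV, from *Apoc4*, is a minor protein of such particles. In macrophages the whole locus is known to be induced by sterols through the liver X receptors (LXRs), nuclear receptors that bind oxysterols and also control *Abca1*, *Abcg1* and *Mylip*.

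In the GRCm38 annotation (GENCODE M21) the cluster spans 27610 bases of chromosome 7, from 19671579 to 19699188, and all members are read from the minus strand. *Apoe* (ENSMUSG00000002985, 19696109 to 19699188) comes first in the direction of transcription and is followed by *Apoc1* (ENSMUSG00000040564, 19689481 to 19692660) after 3448 bases. *Apoc4* (ENSMUSG00000074336, 19678083 to 19681479) begins 8001 bases after *Apoc1* ends, and *Apoc2* (ENSMUSG00000002992, 19671579 to 19677941) begins only 141 bases after *Apoc4* ends. Upstream of *Apoe* lies *Tomm40*, 2124 bases away, and downstream of *Apoc2* lies *Clptm1*, 6545 bases away. No annotated gene on either strand overlaps *Apoe* or *Apoc1*. A read-through gene, *Gm44805* (19671584 to 19681423), joins the first exon of *Apoc4* to the exons of *Apoc2*. It has no counts here, and the sources used do not say whether the annotation used for counting held it. The exons of *Gm44805* cover 646 of the 813 exonic bases of *Apoc2* (79.5%) and 119 of the 2537 exonic bases of *Apoc4* (4.69%). By sequence, reads from those bases could come from either gene.

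The junctions that follow the first exon show how the read-through forms are built. Each sequence has 15 bases on either side of the junction in the spliced transcript (GENCODE M21, minus strand of chromosome 7), and capitals mark the end of the first exon of *Apoc4*, which ends at 19681305. In the *Apoc4* messenger that exon is joined to base 19678742, the start of the second exon of *Apoc4*, whereas in *Gm44805* it is joined to base 19676884 or 19673613, both the first base of an exon of *Apoc2*. The last line is the *Apoc2* form whose own first exon ends at 19677866, and it shares the 15 bases after the junction with the first read-through form.
Apoc4 messenger: TGGTCAGCTTTGTAGcatccatgtctacag
Gm44805, long form: TGGTCAGCTTTGTAGgcctgccaccccacc
Gm44805, short form: TGGTCAGCTTTGTAGgtcccagacagcatg
Apoc2 form: aagtcttagaggccggcctgccaccccacc

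The sequences before the start sites of *Apoe* and *Apoc4* are shown because both genes had enough reads in every library to be compared. They are the 250 bases before the start site that RefSeq gives (GRCm38.p6, minus strand), chr7:19699189-19699438 for *Apoe* and chr7:19681461-19681710 for *Apoc4*. Capitals mark matches on either strand. The motifs searched were the TATA box, spelled TATAAA, the CCAAT box, the core GAGGAA bound by PU.1, the macrophage factor encoded by *Spi1*, the GC box, spelled GGGCGG, and the DR4 element that LXRs bind, a pair of half-sites spelled AGNTCA with 4 bases between them.
Apoe: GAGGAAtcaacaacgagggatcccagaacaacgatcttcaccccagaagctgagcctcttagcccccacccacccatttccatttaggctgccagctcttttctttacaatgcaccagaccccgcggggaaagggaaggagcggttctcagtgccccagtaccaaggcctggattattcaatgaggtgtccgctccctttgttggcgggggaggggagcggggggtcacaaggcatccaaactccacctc
Apoc4: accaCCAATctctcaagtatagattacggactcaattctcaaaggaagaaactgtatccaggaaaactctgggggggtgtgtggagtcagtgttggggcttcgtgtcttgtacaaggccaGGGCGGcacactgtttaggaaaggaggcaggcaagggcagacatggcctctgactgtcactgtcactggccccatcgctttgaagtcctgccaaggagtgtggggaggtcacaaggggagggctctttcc

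The window searched ran from 250 bases before to 50 bases after each start. The *Apoe* window held GAGGAA at base -250 and again at base 2 after the start, which is a match on the opposite strand beyond the printed stretch. GAGGAA is also found in 28.3% of the 32851 mouse promoter windows of that length. The *Apoc4* window held CCAAT at base -246 and GGGCGG at base -130, which 37.4% and 35.7% of the windows hold. A DR4 element was found in 0.125% of windows and in none of the windows of *Apoe*, *Apoc4* and *Apoc2*, which says only that these letters are not there and nothing about elements farther away. RefSeq lists 3 start sites of *Apoe*, and the window of the second, at 19698621 within the first intron, held TATAAA at base -96. An overlapping match on the opposite strand began at base -100, and 13.6% of windows hold TATAAA on either strand. The window of the third, at 19698398, held GAGGAA at base -132.

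The counts are reads per gene, with 23538963 to 41683825 counted reads a library, and levels are given as CPM, the counts per 1000000 reads on TMM-scaled library sizes. All libraries were fitted together with edgeR, 1 mean per group, over the 14237 genes that passed a filter on low counts, and a gene was called when its adjusted p was under 0.05. *Apoe* and *Apoc4* reached the filter's cutoff of 0.306 CPM in all 15 libraries, *Apoc1* in all but 2 of the 4 WT non-foamy libraries, and *Apoc2* in none, so that 3 of the 4 genes were tested. *Trem2*, the targeted gene, lay between 327 and 415 CPM in the WT libraries and between 214 and 232 CPM in the Trem2-/- libraries, and its log2 fold change between the genotypes without cholesterol was -0.67 (adjusted p = 2.85e-07, s.e. 0.08). Its transcript was thus still counted in Trem2-/- cells, and loss of the protein cannot be read from these counts. *Ptprc*, *Csf1r*, *Adgre1*, *Cd68* and *Spi1* were above 87 CPM in every library, while *Cx3cr1*, *P2ry12* and *Tmem119*, markers of microglia in tissue, did not exceed 2.47 CPM. The remaining genes of the 10 macrophage and microglia markers lay between these, at 11.2 to 33.1 CPM. Hepatocyte and astrocyte markers, which would come with cell types that make much apoE, summed to at most 0.134 and 0.631 CPM, with *Alb*, *Ttr*, *Aqp4* and *Aldh1l1* at 0. Fibroblast and neuron markers summed to at most 0 and 0.348 CPM. Oligodendrocyte markers summed to at most 2.57 CPM, of which *Mbp* and *Mog* were at most at 0.674 and 0 CPM. In bulk RNA, fewer expressing cells and less RNA per cell cannot be told apart.

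*Apoe* stood apart from its neighbours in level. It ranked 71st among all genes by mean CPM in WT non-foamy cells and 26th in Trem2-/- non-foamy cells, and it took on average 0.185% and 0.391% of all counted reads. Per kilobase of exon, its mean level in WT non-foamy cells was 828 CPM per kb, against 0.575 for *Apoc1* and 0.182 for *Apoc4*. The exonic length of *Apoc4* includes a single-exon transcript from 19679306 to 19681401, and its 3-exon messenger alone is 538 bases long, so its level per kilobase depends on which form the reads came from. In any library *Apoc1* had 8 to 88 reads and *Apoc4* 12 to 115, where *Apoe* had 44288 to 142117, so that counting error weighs more on the first 2 genes.

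*Apoe* was lowest in WT non-foamy cells and highest in Trem2-/- non-foamy cells. In WT non-foamy cells it was at 1666, 1773, 1949 and 1693 CPM, and in WT foamy cells at 2199, 2288, 2120 and 2189 CPM. In Trem2-/- cells the non-foamy libraries held 4050, 3846 and 4470 CPM and the foamy libraries 3852, 3928, 3769 and 3491 CPM. Every WT foamy library was thus above every WT non-foamy library, as for 4.56% of all genes tested. At each treatment every Trem2-/- library was above every WT library, as for 22.6% of all genes tested without cholesterol and 13.8% with it. The Trem2-/- groups overlapped. The group means were 1770 ± 127 (SD, n = 4), 2199 ± 69.2 (SD, n = 4), 4122 ± 319 (SD, n = 3) and 3760 ± 191 (SD, n = 4) CPM in that order.

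**Figure D1:**
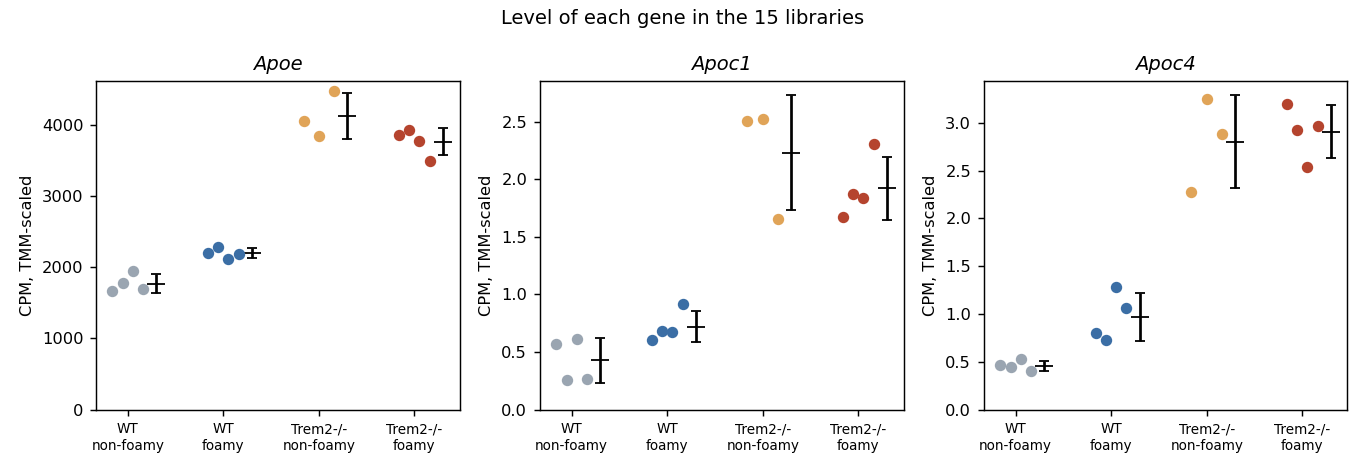
Points are single libraries of each group (x axis) and the y axes give the CPM of *Apoe*, *Apoc1* and *Apoc4* on TMM-scaled library sizes; black marks beside them are the group mean and SD. At each treatment every Trem2-/- library lies above every WT library for each gene, as for 22.6% of all genes tested without cholesterol and 13.8% with it. The axis of *Apoe* reaches 4470 CPM where the other 2 genes reach 2.53 and 3.25 CPM.

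*Apoc4* followed a similar order at a far lower level. Its reads numbered 18, 14, 12 and 18 in WT non-foamy cells and 33, 30, 42 and 37 in WT foamy cells. In Trem2-/- cells they numbered 80, 90 and 87 without cholesterol and 115, 92, 80 and 80 with it. Scaled to library size, the group means were 0.462 ± 0.0522 (SD, n = 4), 0.968 ± 0.253 (SD, n = 4), 2.80 ± 0.489 (SD, n = 3) and 2.91 ± 0.277 (SD, n = 4) CPM. Here too, neither the WT groups nor, at each treatment, the genotypes overlapped, and the Trem2-/- groups did. The shares of all genes tested that separate in these ways are those given for *Apoe*.

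*Apoc1* had the fewest reads of the genes tested in WT cells. The WT non-foamy libraries held 22, 8, 14 and 12 reads and the WT foamy libraries 25, 28, 22 and 32. The Trem2-/- libraries held 88, 70 and 50 reads without cholesterol and 60, 59, 58 and 62 with it. Its group means were 0.428 ± 0.192 (SD, n = 4), 0.719 ± 0.136 (SD, n = 4), 2.23 ± 0.498 (SD, n = 3) and 1.92 ± 0.270 (SD, n = 4) CPM. The WT groups overlapped, since the lowest foamy library (0.604 CPM) was below the highest non-foamy one (0.616 CPM), and the Trem2-/- groups overlapped as well. At each treatment the genotypes did not overlap, with the shares of all genes tested given for *Apoe*.

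*Apoc2* is listed at 0 reads in all 15 libraries. Taken alone, a count of 0 allows up to 3 reads, which is 0.0200 to 0.0323 CPM over the libraries of a group, for counting error only. The sources used here do not say how reads that lie in exons of more than 1 gene were counted, or whether *Gm44805* was in the annotation used for counting. If it was, a counter that sets such reads aside would leave only the 167 exonic bases that *Apoc2* does not share with *Gm44805*. Of protein-coding genes with 90% or more of their exonic bases shared with another gene on the same strand, 64.9% of 77 had 0 reads in every library. The share was 34.0% of 197 genes with 50% to under 90% shared, the class of *Apoc2*, and 34.6% of 20107 genes with no shared base. Of 1335 genes with over 0% and under 50% shared, 20.0% had 0 reads in every library. Median reads over the 15 libraries differed between the classes. They were 132 with no shared base, 3859 with under 50% shared, 9 in the class of *Apoc2* and 0 with 90% or more shared. Whether the overlap led to the listed 0 was not tested. Since the way of counting is not known, that 0 cannot be read as absence of an *Apoc2* messenger.

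The first comparison asked how cholesterol loading changed the cluster in WT cells. *Apoe* rose 1.24-fold (0.31 on the log2 scale, s.e. 0.07, adjusted p = 0.0131) and *Apoc4* rose 2.10-fold (1.07, s.e. 0.26, adjusted p = 0.0275), while *Apoc1* was 1.72-fold higher without passing the test (0.78, s.e. 0.32, adjusted p = 0.219). The 95% interval of *Apoc1* ran from 0.11 to 1.45 on the log2 scale. Thus 2 of the 3 genes tested were called higher, where 1.66% of all genes tested were, and the same 2 genes had groups that did not overlap, as 4.56% of all genes did in that direction. Neither call held under every alternative, although the fold changes stayed alike. With only the WT libraries in the fit, *Apoe* was at 0.31 (adjusted p = 0.0619) and *Apoc4* at 1.07 (adjusted p = 0.123). With 1 library left out the log2 fold change was 0.28 to 0.36 for *Apoe* and 0.90 to 1.18 for *Apoc4*. *Apoe* was no longer called without WT non-foamy replicate 1 (adjusted p = 0.0668) or 4 (0.055) or without WT foamy replicate 2 (0.0657), and *Apoc4* without WT non-foamy replicate 1 (0.072), 2 (0.0594) or 4 (0.0844) or WT foamy replicate 3 (0.0853).

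Of all 14237 genes tested, 399 were called in the WT response in either direction, and 1.66% were called higher. Of 17 LXR targets, 14 were tested, and 5 of these rose in WT foamy cells and none fell. They were *Abca1* (log2 fold change 0.82, s.e. 0.10) and *Abcg1* (0.76, s.e. 0.10), transporters that export cholesterol, *Mertk* (0.57, s.e. 0.08), a receptor for apoptotic cells, *Mylip* (0.47, s.e. 0.07), a ubiquitin ligase that limits lipoprotein uptake, and *Arl4c* (0.44, s.e. 0.06), a small GTPase. The log2 fold change of *Apoe* was smaller than that of each of these 5, and the median over the 14 tested targets was 0.36 against 0.01 over all genes tested. *Clu*, which encodes apoJ, was the only one of 6 tested genes among 20 other apolipoprotein genes that was called, higher by 0.24 (s.e. 0.06, adjusted p = 0.0251). By edgeR no gene was called among 12 regulators of *Apoe* transcription, 8 tested receptors of apoE particles or 6 tested partners in lipolysis and lipid transfer, of which 2, 4 and 1 had an unadjusted p under 0.05, with median log2 fold changes of 0.11, -0.04 and 0.17. *Lpl*, the lipase that apoC-II activates, was at 2184 ± 60.1 CPM in WT non-foamy cells and 2134 ± 79.4 CPM in WT foamy cells (SD, n = 4 each).

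The same treatment was then compared in Trem2-/- cells. None of the 3 genes was called, where 0.14% of all genes tested were called in either direction. The log2 fold change was -0.13 for *Apoe* (95% interval -0.28 to 0.02, adjusted p = 0.815), -0.22 for *Apoc1* (-0.81 to 0.37, adjusted p = 0.947) and 0.06 for *Apoc4* (-0.41 to 0.53, adjusted p = 0.987), and none had an unadjusted p under 0.05. The intervals of *Apoc1* and *Apoc4* include changes in either direction, so a difference is neither shown nor excluded. DESeq2 gave *Apoe* an adjusted p of 0.64 and the other 2 genes none. Of the LXR targets, *Abca1* (-0.49, s.e. 0.10, adjusted p = 0.0478) and *Mylip* (-0.44, s.e. 0.08, adjusted p = 0.0128) were called lower, and the median over the 14 tested was -0.22. No gene of the other 4 lists was called by edgeR, and 1, 0, 0 and 1 of their genes had an unadjusted p under 0.05.

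**Figure D2:**
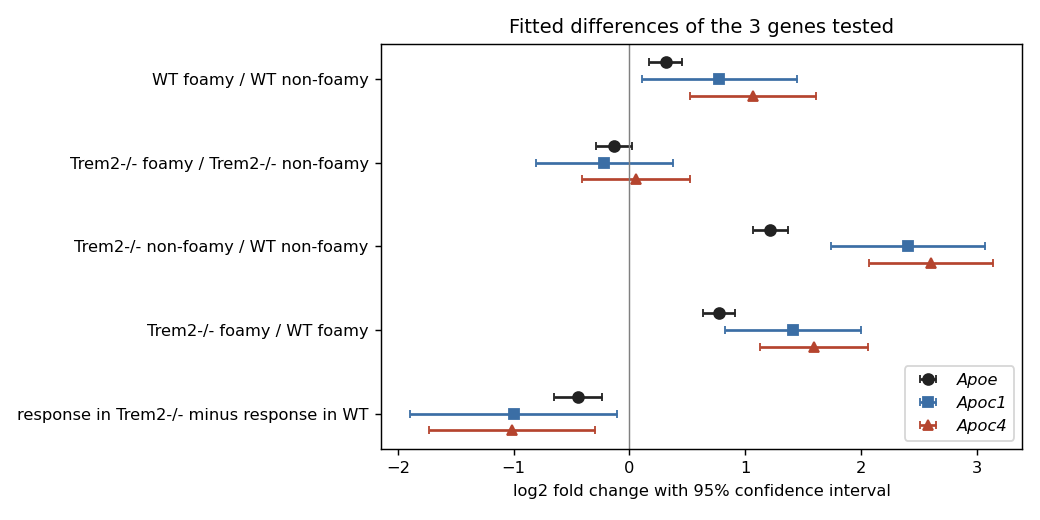
The x axis is the log2 fold change and its 95% confidence interval from the edgeR fit, and each row is a comparison for *Apoe*, *Apoc1* and *Apoc4*. The genotype rows lie to the right of 0 for all 3 genes, from 0.77 for *Apoe* in foamy cells to 2.61 for *Apoc4* in non-foamy cells, and the intervals in the Trem2-/- response row include 0.

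The difference between the responses was tested directly. For *Apoe* the response in Trem2-/- cells was lower than that in WT cells by a log2 difference of -0.45 (s.e. 0.10, 95% interval -0.65 to -0.24, adjusted p = 0.0155). For *Apoc4* it was -1.01 (s.e. 0.35, adjusted p = 0.107) and for *Apoc1* -0.998 (s.e. 0.43, adjusted p = 0.224), neither of which was called, so that 1 of 3 genes was called lower where 1.64% of all genes tested were. Without Trem2-/- non-foamy replicate 3, the library with the highest *Apoe* level, the difference for *Apoe* was -0.38 (adjusted p = 0.0592). Of the 14 tested LXR targets, 5 had a lower response in Trem2-/- cells and none a higher one. They were *Abca1* (-1.31), *Abcg1* (-1.19), *Mylip* (-0.91), *Mertk* (-0.73) and *Arl4c* (-0.69), and the median over the list was -0.51. In the other 4 lists, in the order of the first comparison, 4 regulators, 4 receptors, 0 lipolysis partners and 1 apolipoprotein gene had an unadjusted p under 0.05 and none was called by edgeR. This difference shares the libraries of both responses and of the genotype comparison without cholesterol, and is not a separate measurement from them.

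**Figure D3:**
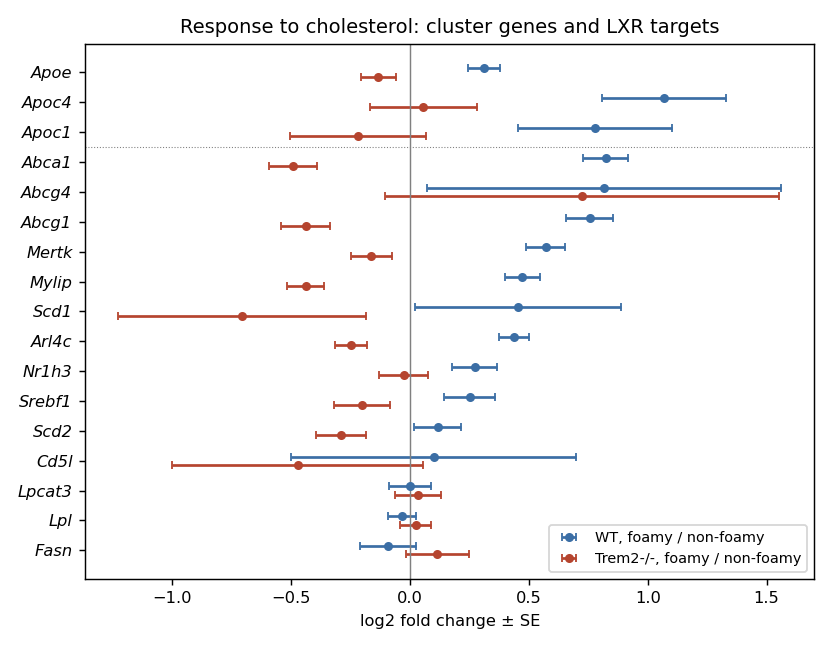
Log2 fold change of foamy against non-foamy cells (x axis, points with s.e.) in WT and in Trem2-/- cells for the cluster genes, above the dotted line, and for the 14 tested LXR targets, below it in the order of the WT response. *Apoe* lies at 0.31 in WT and -0.13 in Trem2-/- cells, and *Abca1*, the first of the targets, at 0.82 and -0.49.

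The largest differences in the cluster were between genotypes. Without cholesterol, *Apoe* was 2.33-fold higher in Trem2-/- cells (1.22 on the log2 scale, s.e. 0.07, adjusted p = 1.38e-11), *Apoc4* 6.09-fold (2.61, s.e. 0.26, adjusted p = 3.25e-08) and *Apoc1* 5.32-fold (2.41, s.e. 0.32, adjusted p = 2.06e-06). All 3 genes tested were called higher, but so were 21% of all genes tested, and all 3 had genotypes that did not overlap, as 22.6% of all genes did in that direction. Ordered by p, *Apoe* was 50th of all genes tested. Leaving out any 1 library of the groups compared kept each of the 3 calls.

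Among the 14 tested LXR targets, 7 were higher and 3 lower in Trem2-/- non-foamy cells, and of all genes tested 21% were called higher and 22.6% lower. *Abca1* (1.27), *Mertk* (1.23), *Abcg1* (1.22), *Mylip* (0.86) and *Arl4c* (0.85) were among the higher, with *Cd5l* (1.97) and *Nr1h3* (0.32), which encodes LXR alpha. *Fasn*, *Lpl* and *Lpcat3*, enzymes of fatty acid synthesis, triglyceride lipolysis and phospholipid remodelling, were lower by -0.80, -0.50 and -0.33. Of the regulators of *Apoe*, 5 of 12 were higher and 1 was lower, the higher ones including *Rxra* (0.42, s.e. 0.10), the partner of LXRs, with *Ppard* (0.38, s.e. 0.12), *Nr1h3* and *Rxrb* (0.23, s.e. 0.07). *Spi1* was at 0.07 (s.e. 0.07, adjusted p = 0.379). Of the 8 tested receptors, *Lrp1* was higher (0.48, s.e. 0.14) and 3 were lower, *Lrp8* (-0.85, s.e. 0.10) and *Scarb1* (-0.58, s.e. 0.09) among them.

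Of the 6 tested partners in lipolysis, *Lipa*, the lysosomal acid lipase, and *Sel1l*, which aids the folding of lipoprotein lipase, were higher by 0.58 and 0.28, and *Lpl* was lower. Among the other apolipoproteins *Clu* was higher (0.67, s.e. 0.06) and *Apoo*, a mitochondrial protein, lower (-0.42, s.e. 0.10). The 14 of those 20 genes that were not tested, *Apoa1*, *Apob*, *Apoc3* and *Apod* among them, had at most 8 reads in any library. The medians over the 5 lists, in the order given, were 0.21, 0.25, -0.09, 0.34 and 0.18, against 0.02 over all genes tested.

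With cholesterol, the genotypes still differed at every gene tested. *Apoe* was 1.71-fold higher in Trem2-/- foamy than in WT foamy cells (0.77 on the log2 scale, s.e. 0.07, adjusted p = 1.63e-08), *Apoc4* 3.02-fold (1.59, s.e. 0.22, adjusted p = 1.08e-05) and *Apoc1* 2.66-fold (1.41, s.e. 0.28, adjusted p = 0.000589). Of all genes tested, 14.3% were called higher and 13.8% had higher groups without overlap, where all 3 cluster genes met both. The LXR targets *Abca1* (-0.04, s.e. 0.09) and *Abcg1* (0.02, s.e. 0.10) were not called in this comparison. Over that list 1 gene, *Mertk* (0.50, s.e. 0.08), was higher and 6 were lower, where 15.9% of all genes tested were called lower, with *Srebf1* (-0.64), *Fasn* (-0.59) and *Lpl* (-0.44) among them. In the regulator list 1 gene, *Rxra*, was higher (0.35, s.e. 0.09) and 1 lower, and 3 of 8 receptors, *Lrp8* (-0.50, s.e. 0.09) and *Scarb1* (-0.25, s.e. 0.08) among them, were lower and none higher. *Lipa* was higher (0.46) among the lipolysis partners, with *Lpl* lower, and *Clu* (0.37) and *Apool* (0.23) were higher and *Apoo* (-0.37) lower among the other apolipoproteins. The list medians were -0.05, -0.01, -0.14, 0.11 and 0.30, against 0.00 over all genes tested.

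Because *Apoc1* and *Apoc4* lie downstream of a gene with far more reads, their reads were also expressed per 10000 *Apoe* reads of the same library. For *Apoc4* this ratio was 2.80, 2.54, 2.71 and 2.37 in WT non-foamy cells and 3.63, 3.21, 6.06 and 4.84 in WT foamy cells. In Trem2-/- cells it was 5.63, 8.45 and 6.44 without cholesterol and 8.30, 7.45, 6.72 and 8.51 with it. It was higher in every WT foamy than in every WT non-foamy library, and at either treatment it was higher in every Trem2-/- than in every WT library. How many other genes would separate the groups by their ratio to *Apoe* was not computed. In CPM, 4.56% of all genes tested were higher without overlap in WT foamy cells. Between genotypes that share was 22.6% without and 13.8% with cholesterol.

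An exact two-sided permutation test of the log2 ratio, with 4 comparisons adjusted together, gave p = 0.0286 (adjusted 0.0571) for WT foamy against WT non-foamy (difference in mean log2 ratio 0.72) and for Trem2-/- foamy against WT foamy (0.84), the smallest p that 4 libraries against 4 allow. For Trem2-/- against WT without cholesterol (1.37) the exact permutation p was 0.0571 (adjusted 0.0762), the smallest that 3 libraries against 4 allow. In Trem2-/- cells the ratio with and without cholesterol overlapped (0.19, exact p = 0.286). With so few libraries, no data could bring any of the 4 below an adjusted p of 0.0571, so the adjusted test says nothing for or against a difference.

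For *Apoc1* the ratio was not tested, since 1 library had under 10 reads. It averaged 2.41 ± 1.03 (SD, n = 4) in WT non-foamy, 3.27 ± 0.631 (SD, n = 4) in WT foamy, 5.49 ± 1.56 (SD, n = 3) in Trem2-/- non-foamy and 5.14 ± 0.996 (SD, n = 4) in Trem2-/- foamy cells. The genotypes did not overlap at either treatment and the treatments overlapped in both genotypes. For this ratio too, the share of other genes that would separate the genotypes was not computed. Per kilobase of exon, *Apoc1* ran at 0.0691% of the *Apoe* level in WT non-foamy and 0.158% in Trem2-/- non-foamy cells, and *Apoc4* at 0.0220% and 0.0576%. Gene totals do not show where along a gene the reads lie, and the part of transcription running on from *Apoe* or *Apoc4* was not tested.

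**Figure D4:**
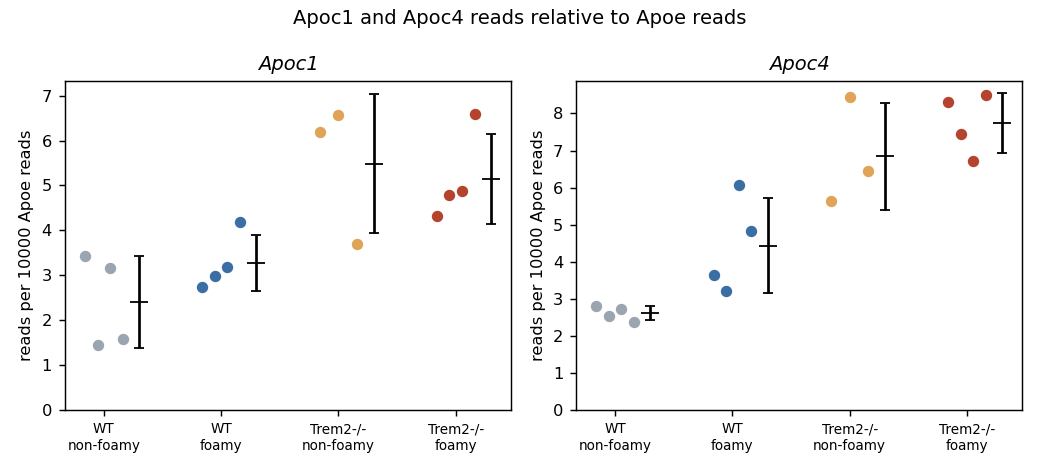
Reads of *Apoc1* and *Apoc4* per 10000 *Apoe* reads of the same library (y axes) in each group; points are libraries, and black marks are the mean and SD. WT non-foamy libraries lie between 2.37 and 2.80 for *Apoc4*, and Trem2-/- foamy libraries between 6.72 and 8.51.

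The flanks of the cluster were compared in the same fit. Of 12 other genes with counts in the 100 kb on either side, 8 were tested. By edgeR none of the 8 was called in the response to cholesterol in either genotype, in the genotype comparison with cholesterol, or in the difference between the responses, where 1, 1, 1 and 2 of them had an unadjusted p under 0.05. Of all 14237 genes tested, 399 were called in the WT response and 20 in the Trem2-/- response, in either direction. The genotype comparison with cholesterol had 4297 such calls and the difference between the responses 518. Without cholesterol, 2 of the 8 were lower in Trem2-/- cells, where 22.6% of all genes tested were called lower, and none was higher. They were *Tomm40* (log2 fold change -0.63, s.e. 0.11, adjusted p = 3.85e-05), the mitochondrial import channel gene next to *Apoe*, and *Zfp296* (-0.54, s.e. 0.15, adjusted p = 0.00629). *Tomm40* thus had 66.6 ± 5.97 CPM in WT and 43.0 ± 3.89 CPM in Trem2-/- non-foamy cells (SD, n = 4 and 3), in the other direction than *Apoe*, 2124 bases away. *Clptm1*, past the other end of the cluster, was at 79.4 ± 7.94 and 85.1 ± 4.76 CPM (0.10, s.e. 0.09, adjusted p = 0.398). The median over the 8 genes was 0.01 without cholesterol, against 0.02 over all genes tested. *Bcam*, which had 0 to 16 reads a library, was not called at a log2 fold change of 1.12 (s.e. 0.82).

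**Figure D5:**
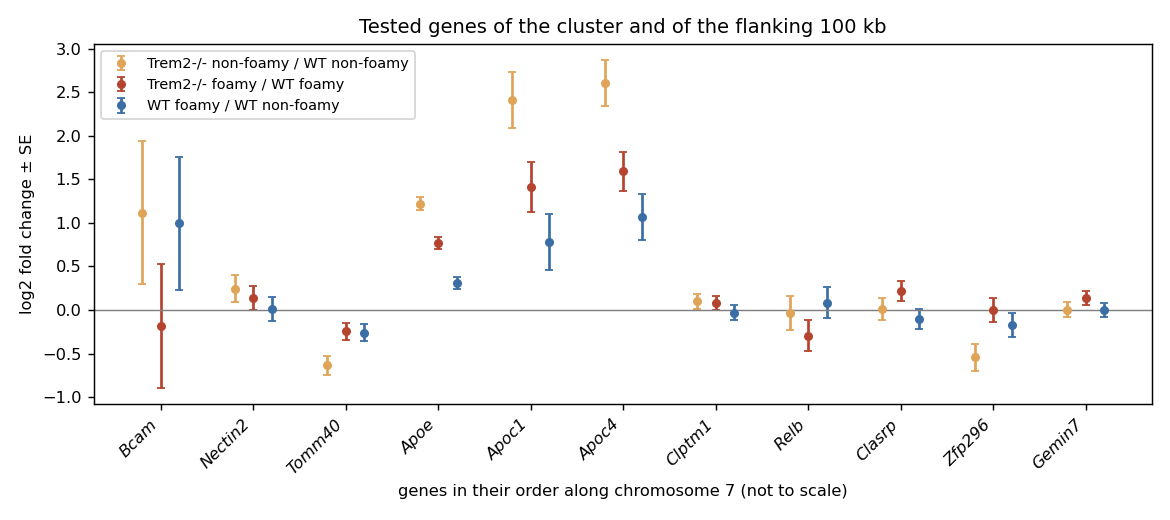
Log2 fold change with s.e. (y axis) of the 3 tested cluster genes and the 8 tested flanking genes in their order along chromosome 7 (x axis, not to scale) in 3 comparisons. *Apoe*, *Apoc1* and *Apoc4* lie at 1.22, 2.41 and 2.61 for Trem2-/- against WT without cholesterol, and their flanks *Tomm40* and *Clptm1* at -0.63 and 0.10.

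Over the 15 libraries, the genes whose pattern lay nearest to that of *Apoe* were compared by the root mean square difference of log2 CPM, each gene centred on its own mean, among 11701 genes that averaged at least 1 CPM. They were *Trafd1* (0.0880), *Pld3* (0.0961), *Timp2* (0.0977), *Rilpl2* (0.0994) and *Cyp4v3* (0.104), against a spread of *Apoe* about its own mean of 0.513. *Timp2*, an inhibitor of metalloproteases, for example went from 65.7 CPM in WT non-foamy to 84.6, 167 and 151 CPM in WT foamy cells and in Trem2-/- cells without and with cholesterol. Nearest to *Apoc4* was *Selenop*, the selenium carrier selenoprotein P, at 0.213, with 163, 266, 932 and 966 CPM in that order, followed by *Mgst1*, *Selenbp2*, *Gm6325* and *Tspan10* (0.291 to 0.303). For *Apoc1* the nearest were *Gm6325*, *Sult1a1*, *Spef2*, *Sirpb1b* and *Htr2b* (0.261 to 0.329). *Gm6325* was in both sets, and neither *Apoc1* nor *Apoc4* shared a gene with the 5 nearest to *Apoe*. These measures are descriptions over libraries that share their groups.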

How the data were processed

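RNA of BV2 cells was sequenced as 15 TruSeq libraries, and the authors deposited raw read counts per gene, 1 table per library, without normalization. Per the study's methods, reads were trimmed with Trimmomatic, aligned to GRCm38 (mm10 per the labels) with HISAT2 and counted with featureCounts (CHURP pipeline). Whether strand was used, and how a read lying in more than 1 gene was counted, is not given in the sources used here, and counts of overlapping genes are uncertain for that reason. Counts were tested as deposited with edgeR 4.0.16 (TMM factors 0.918 to 1.11, filterByExpr with a minimum count of 10, glmQLFit and glmQLFTest, R 4.3.3) over 14237 genes holding 99.97% of counts, with Benjamini-Hochberg adjustment and a threshold of 0.05. The biological coefficient of variation was 10.2%, and 23538963 to 41683825 reads a library set the counting precision. The 95% intervals of fold changes come from the fit and include the spread between libraries, whereas the limit of a count of 0 (3 reads) covers counting error only. Replicate libraries differed by more than sampling noise (chi-square per gene at least 5.95), so none was counted as a duplicate.

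The members and gene lists were chosen with earlier results of these data known. All members were described in every library, listed genes where they were called in a comparison or had a mean of at least 1 CPM, all genes within 100 kb, and the 5 genes most like each tested member. Some genes of the lists enter the counts and medians but are not reported here by name. *Apoc4* was compared with *Apoe* by an exact permutation test of the log2 ratio of reads. Exons and splice junctions came from GENCODE M21 (99.39% of the listed genes found) and promoters from RefSeq, which matched 3 of the 4 members. Alternatives were DESeq2 1.42.0, RLE factors, total counts, other filters, only the groups compared, a replicate block, members' counts added, and leaving out each library.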

Additional observations from a re-analysis of the deposited data

Results flagged for a closer look

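The response of *Apoe* to cholesterol differed between the genotypes by a test of the difference itself, with a log2 difference of -0.45 (Trem2-/- minus WT, s.e. 0.10, edgeR adjusted p = 0.0155 over all genes tested). All 4 WT foamy libraries were above all 4 WT non-foamy libraries, as they were for 4.56% of all genes tested, whereas the Trem2-/- groups overlapped. These are the libraries of the test itself, so their order is no separate evidence. Leaving out any 1 of the 15 libraries gave -0.49 to -0.38, and the call was lost without Trem2-/- non-foamy replicate 3 (edgeR adjusted p = 0.0592). In none of the groups of 4 libraries was a single value of *Apoe*, *Apoc1* or *Apoc4*, or of their ratios, far enough from the others to be set apart by Dixon's criterion, which was applied to 15 sets of values.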

How the results depend on the processing

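Of 228 values of *Apoe*, *Apoc1* and *Apoc4* recomputed under the alternatives, 216 kept their direction and their side of the threshold. Adding members' counts is left out of that tally, since *Apoc2* had 0 reads and *Apoc1* and *Apoc4* few beside *Apoe*. Every call between genotypes kept both, with log2 fold changes of 1.08 to 1.27 (*Apoe*), 2.21 to 2.63 (*Apoc1*) and 2.46 to 2.74 (*Apoc4*) without cholesterol and 0.65 to 0.81, 1.28 to 1.55 and 1.47 to 1.75 with it. The calls in WT foamy cells were less firm. With a replicate block, *Apoc4* was at 1.06 (adjusted p = 0.0522), no other call changed, and the same-numbered libraries correlated at -0.10 to 0.14 in their deviations from the group means, so the numbers do not pair the libraries. With only the groups compared, *Apoe* was at 0.31 (0.0619) and *Apoc4* at 1.07 (0.123). Leaving out 1 library in turn gave 0.28 to 0.36 for *Apoe* and 0.90 to 1.18 for *Apoc4* in WT cells, -0.07 to 0.17 for *Apoc4* in Trem2-/- cells, where it turned to -0.0745 (adjusted p = 0.992) without Trem2-/- non-foamy replicate 1, and -0.49 to -0.38 for the difference of *Apoe* between responses. *Apoc1* could not be fitted with at least 10 counts in every library, and DESeq2 gave no adjusted p for *Apoc1* and *Apoc4* in the Trem2-/- response and the difference between responses. Gene length cancels in the differences of the ratios to *Apoe* between groups, so that alternative tests nothing. By the largest absolute difference, 3 of the 5 genes nearest to *Apoe*, 3 nearest to *Apoc1* and 4 nearest to *Apoc4* were the same. Of all genes tested, 399 were called in the WT response, against 860 by DESeq2, 607 without a filter, 144 with only the groups compared and 146 to 526 with 1 library left out. In the Trem2-/- response 20 were called, against 62, 61 and, with 1 library left out, 10 to 18, and in the difference between the responses 518, against 983 by DESeq2, 294 with the replicate block and 201 to 661 with 1 library left out. Counting error is largest for *Apoc1* and *Apoc4* in WT non-foamy libraries, with 8 to 22 and 12 to 18 reads.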
